A study of Homo sapiens with 4 samples.

Results

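The loci described here are human transcript sites found methylated by miCLIP2 in HEK293T, a line derived from human embryonic kidney, with the methylated adenosine in the motif GGACC. They were taken from the count table by 2 criteria: the designed class m6A, and the bases G, G, A, C and C at positions 49, 50, 51, 52 and 53 of the sequence, with T written for U. This gave 513 of the 11999 oligonucleotides and 171 of 3949 distinct sequences, each present as 3 tag copies. Tag copies of a locus had an identical sequence in the table and differed only in a tag of 15 nt carried by the transcript. They were summed before any test, since they are not replicates.

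The assay was in vitro miCLIP2, in which an antibody is crosslinked to RNA and reverse transcription stops at the crosslink, so that stops mark N6-methyladenosine (m6A) at single-nucleotide resolution. Transcripts of 183 nt made in vitro from the oligonucleotide pool were incubated with recombinant METTL3–METTL14 complex in the methylated group (2 libraries, replicates 1 and 2), and without the complex in the unmethylated group (2 libraries, replicates 1 and 2). All 4 libraries came from the same designed pool, with 500 ng of RNA as input, and the same m6A-specific SySy antibody, and no cells were present at the methylation step. The RNA therefore carried no cellular mark, and class m6A refers only to how the sequences had been chosen. The series asked whether sequence preference is intrinsic to the writer complex, and beyond "in duplicate" nothing says that replicates were separate reactions, so p-values measure only the spread between these libraries, which may be technical.

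METTL3 is the catalytic subunit of the complex and METTL14 holds the RNA substrate. The complex methylates adenosines within the consensus DRACH, in which D stands for any base but C, R for a purine and H for any base but G. GGACC fits this consensus with G at both upstream positions and C at the last one, a position at which GGACU is the form most often found in cellular mRNA. The signal of the antibody is no direct measure of the methylated share of molecules, because crosslinking also occurs at unmodified RNA.

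The libraries held 13110615 and 13265092 counts in the methylated group and 10483825 and 12028474 in the unmethylated group. The 171 loci took 7.09% and 7.08% of these counts in the methylated libraries and 6.78% and 6.63% in the unmethylated ones. The median oligonucleotide of these loci held 438 and 497 counts in the methylated libraries, against 369 and 361 in the unmethylated ones. Between 11 and 16 of the 513 oligonucleotides had no count in a library. Positions are given as the table lists them, without a named genome build. Of the loci 99.4% lay in a RefSeq gene of GRCh38.p14, and the 152 that lay in exactly 1 gene carry its symbol, irrespective of strand.

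The sequences below show positions 37 to 65 of 17 loci, with GGACC in capitals and T for U, to let the surroundings of strong, weak and reversed responses be compared. The first 9 are loci with the largest rises or the highest signal.

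PIGU: acagggctgcatGGACCtcagggggctgt
SAMD11: agcaggagaatgGGACCttggctctactt
ARRDC1: tccacgacgtacGGACCattgcggaggtg
TOB2: ctgcctaggaaaGGACCatgcagctagag
TRIM52: ggattacttcaaGGACCccgtgtccatca
ZNF746: tagaggctcacgGGACCctgtttggacca
ARF6: cgccaacaagcaGGACCtgcccgatgcca
chr3:128912804: tgctctctaacaGGACCatcacagcttct
ASB6: agaagctgggaaGGACCaagcctcagcac

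The next 4 were among the tested loci with the lowest fold changes.

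DLX1: gagccgcctggaGGACCcaggtacgtgcg
SOX4: ttcccgggccggGGACCcactctgcccag
SLC35B3: ggtgatggcgacGGACCaggggaggggga
LBX1-AS1: agccagggcctgGGACCctctggctgggc

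The last 4 had the deepest oligonucleotides of the loci with too few counts at the adenosine to be tested.

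ZBTB18: cacgcagtccggGGACCtgtacagacaca
MTG1: ggccagctccagGGACCccagttgcaggg
TTL: ggcagggcactgGGACCtctggtcggtgc
chrX:102715460: cagccctggtttGGACCaggggaggagac

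Summed over all 171 loci without a count filter, the signal at the adenosine was 5.32 times as high in methylated as in unmethylated RNA. It was 1265 and 1245 CPM (counts scaled to a library total of 1e6) in the methylated libraries, against 207 and 265 CPM in the unmethylated ones, with means of 1255 ± 14.5 and 236 ± 40.6 CPM (SD, n = 2 each). The groups did not overlap, and the exact two-sided permutation test gave p = 0.333, the lowest value open to a design with 2 libraries in each group. As a share of all counts of the same oligonucleotides, the adenosine took 17.9 (95% Wilson interval 17.6 to 18.1) and 17.6 (17.3 to 17.8) per 1000 in the methylated libraries. In the unmethylated libraries it took 3.06 (2.93 to 3.19) and 3.99 (3.86 to 4.13) per 1000, so that the ratio of mean shares was 5.03. These intervals cover counting error only, since whether counts are independent molecules is not given in the sources used here.

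A single locus held much of this sum on each side. PIGU gave 43.1% of the methylated and 10.5% of the unmethylated signal, whereas DLX1 gave 0.891% of the methylated and 27.1% of the unmethylated signal. Without PIGU the CPM ratio was 3.38, without DLX1 it was 7.22, and without both it was 4.77 (703 ± 29 CPM in methylated and 147 ± 6.69 CPM in unmethylated libraries, SD, n = 2 each). The 5 loci with the highest methylated signal together gave 67.7% of it.

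The rise was centred on the adenosine. At the 40 other offsets within 20 nt on either side, the summed CPM ratio had a median of 1.12 and lay between 0.796 and 2.58. The highest of these was 1 nt upstream, with 626 ± 55.1 CPM in methylated and 243 ± 10.3 CPM in unmethylated libraries (SD, n = 2 each). PIGU contributed 296 and 343 CPM there in the methylated libraries, against 24.4 and 31.4 CPM in the unmethylated ones, and without PIGU and DLX1 the ratio at that offset was 1.61. The nucleotide behind the adenosine had a ratio of 1.69, and of 1.40 without these loci. Values by offset have no test of their own.

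Of the 171 loci, 80 reached 10 counts in 2 or more of the libraries and were tested in a fit over all 142938 such sites of the table. The quasi-likelihood test of edgeR, adjusted after Benjamini and Hochberg, called 47 of the 80 higher in methylated RNA and 1 lower, at an adjusted p threshold of 0.05. Over all sites of the table, 3.7% were higher and 2.01% lower. Over the selected adenosines of all classes, these loci included, 42.2% were higher and 0.248% lower. Among the selected adenosines of the other 1817 loci of the m6A class, 49.3% of 674 tested were higher and 0.0% lower. GGACC adenosines elsewhere were higher in 46.6% of 339 cases and lower in 0.0%, and DRACH adenosines other than these loci in 38.1% and 0.166%. The median log2 fold change of the 80 loci was 2.25 (quartiles 0.73 and 3.02), against −0.01 over all sites tested. Without methylated replicate 1 or methylated replicate 2, 47 loci could be tested, and 17 were higher and 1 lower each time.

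The filter bears on these counts. The 39 loci with at least 10 counts in both unmethylated libraries could pass without any methylation signal, and 19 of them were higher, 1 was lower and the median log2 fold change was 1.15. The other 41 needed methylated counts to pass, so that a rise was built into their choice, and 28 of them were higher. In 69 of the 80 loci both methylated libraries lay above both unmethylated ones, in 3 below, and in 8 the libraries overlapped. The same count over all sites is not given here, and the choice of the 41 loci favoured such an order. It therefore serves as a description only.

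Whole oligonucleotides also shifted between groups. The summed CPM of all positions was higher in methylated than in unmethylated libraries in most loci that rose, with a median ratio of 1.28 (range 0.715 to 2.03) over the 47, against 0.979 (0.378 to 1.68) over the 32 tested loci that were not called. With sequence totals as an offset for each site, 40 loci were higher and 0 lower by edgeR, against backgrounds of 1.8% and 0.404% over all sites. In this fit 58 of the 80 had an unadjusted edgeR p under 0.05, against 17895 of all 142938 sites. Of the 47 loci 39 stayed called, and the median log2 fold change was 1.87. The part of these whole-sequence changes in the calls of single loci was not tested further.

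PIGU, a subunit of the enzyme complex that attaches GPI anchors to proteins, gave the highest signal (chromosome 20, position 34560840, minus strand). It had 572 and 509.8 CPM in the methylated libraries, against 21.9 and 27.7 CPM in the unmethylated ones. The log2 fold change was 4.41 ± 0.29 (SE, edgeR adjusted p = 2.16e-09). Its share of the oligonucleotide was 91.3 and 92.2 per 1000 in methylated RNA and 7.30 and 7.30 per 1000 in unmethylated RNA, and against the total the log2 fold change was 3.65. It was the only one of the 80 tested loci in which the selected adenosine had the highest mean CPM of all 141 positions of its sequence in methylated RNA. In unmethylated RNA it was at rank 39.

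SAMD11, which encodes a sterile alpha motif protein (chromosome 1, position 944103), had 100.1 and 140.4 CPM in methylated and 4.48 and 5.49 CPM in unmethylated libraries. ARRDC1, an arrestin-domain protein of vesicle release at the plasma membrane (chromosome 9, position 137614341), had 97.8 and 99 CPM in methylated and 2.10 and 2.08 CPM in unmethylated libraries. The log2 fold changes were 4.55 ± 0.32 and 5.52 ± 0.33 (SE), with edgeR adjusted p-values of 3.61e-09 and 7.05e-10. ARRDC1 had the largest change of the loci with at least 3 unmethylated counts. Neither its sequence nor that of PIGU held another DRACH motif.

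The next in signal were TRIM52, ZNF746 and TOB2. TRIM52, a tripartite motif protein gene (chromosome 5, position 181260728), had 48.8 and 42.7 CPM in methylated libraries, against 3.24 and 4.99 CPM in unmethylated ones. ZNF746, a zinc finger repressor that is a substrate of the ubiquitin ligase parkin (chromosome 7, position 149475394), had 47.7 and 41.9 CPM, against 4.10 and 4.91 CPM in unmethylated libraries. TOB2, an antiproliferative protein that recruits the CCR4–NOT deadenylase (chromosome 22, position 41437348), had 45 and 42.7 CPM in methylated libraries, against 2.00 and 2.83 CPM in unmethylated ones. All 3 rose without overlap between groups, with log2 fold changes of 3.43 ± 0.32, 3.28 ± 0.31 and 4.14 ± 0.33 (SE) and edgeR adjusted p-values of 1.33e-07, 1.37e-07 and 1.65e-08.

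Large rises were also found at low signal. ARF6, a small GTPase of endosomal traffic (chromosome 14, position 49894110), had 93 and 51 counts in methylated and 1 and 3 counts in unmethylated libraries, with a log2 fold change of 4.85 ± 0.60 (SE, edgeR adjusted p = 9.09e-06). ASB6, a substrate adaptor of cullin ubiquitin ligases (chromosome 9, position 129637466), had 45 and 30 counts in methylated libraries, against 2 and 3 counts in unmethylated ones. The locus chr3:128912804, which lies in several genes, had 50 and 36 counts, against 0 and 4 counts in unmethylated libraries, and TYW2, an enzyme of the tRNA base wybutosine, had 31 and 26 counts, against 0 and 4. Their log2 fold changes were 3.60, 4.10 and 3.51, with edgeR adjusted p-values of 5.31e-04, 3.77e-04 and 0.00378. ARF6 and these loci passed the filter only through their methylated counts, so that a rise was built into their choice.

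In 3 loci that rose, no count was found in either unmethylated library, so that the fold is a lower bound against a floor of 3 counts per library. The locus chr16:803646, in several genes, had 12 and 20 counts in the methylated libraries and was at least 4.52-fold higher. SIPA1L3, which encodes a GTPase-activating protein for Rap (chromosome 19, position 38081603), had 14 and 16 counts and was at least 4.25-fold higher, while the whole sequence was 2.03 times as high. STX17, the autophagosomal syntaxin (chromosome 9, position 99968719), had 13 and 10 counts and was at least 3.26-fold higher. All 3 passed edgeR's threshold, with adjusted p-values of 0.00296, 0.00344 and 0.0102, and DESeq2 gave no adjusted p for them. They, too, passed the filter only through methylated counts, so that a rise was built into their choice.

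A further 3 loci had 2 unmethylated counts each. In chr6:31971680 there were 34 and 38 methylated counts, a ratio of 30.7 (95% counting interval 8.20 to 258.6), and in chr6:31880077 37 and 33 counts, a ratio of 29.9 (7.97 to 251.5). RWDD2A (chromosome 6, position 83196097) had 23 and 31 counts and a ratio of 23 (6.08 to 195.1). The intervals span more than a factor of 10, so that the order of these loci is not resolved at this depth. For these loci as well, only the methylated counts met the filter, and a rise was built into their choice.

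Of the 4 loci nearest the median of the tested loci, LZTS3 and SYDE1 reached the filter in unmethylated RNA alone, whereas CAND2 and SLC2A10 reached it only through their methylated counts. LZTS3, which encodes a leucine zipper protein of the postsynaptic density (chromosome 20, position 3166207), had 13.3 and 17.6 CPM in methylated libraries, against 3.15 and 2.83 CPM in unmethylated ones (log2 fold change 2.34 ± 0.32 SE, edgeR adjusted p = 4.00e-05). SYDE1 (chromosome 19, position 15113998) had 8.01 and 4.67 CPM, against 1.62 and 0.914 CPM in unmethylated libraries (2.31 ± 0.42 SE, edgeR adjusted p = 0.00110). CAND2, a regulator of cullin ligases (chromosome 3, position 12817231), had 3.43 and 3.02 CPM, against 0.572 and 0.748 CPM (2.23 ± 0.48 SE), and was called with an edgeR adjusted p of 0.00503, but not against the total of its sequence (1.63, adjusted p = 0.0635 by edgeR). SLC2A10, a facilitative glucose transporter (chromosome 20, position 46725911), had a like fold change, 2.3 ± 0.83 (SE), from 13 and 11 methylated and 1 and 3 unmethylated counts, and did not pass the threshold (edgeR adjusted p = 0.120). Without unmethylated replicate 2 it passed (log2 fold change 3.12, edgeR adjusted p = 0.0473).

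DLX1, a homeobox transcription factor gene (chromosome 2, position 172085985), was the only locus of the 80 that was called lower. It had 11 and 11.4 CPM in methylated libraries, against 42.7 and 85 CPM in unmethylated ones, the highest unmethylated signal of all 171 loci (log2 fold change −2.55 ± 0.32 SE, edgeR adjusted p = 1.12e-05). The whole sequence fell as well, to a mean of 10862 counts in methylated libraries, against 67234.5 in unmethylated ones. Within the oligonucleotide the adenosine took 13.1 and 14.1 per 1000 in methylated RNA and 7.70 and 13.4 per 1000 in unmethylated RNA. Set against the total the log2 fold change was 0.36 (edgeR adjusted p = 0.598), so that no fall of the site beyond that of its sequence was found. All 3 tag copies fell, with log2 fold changes of −2.35, −2.62 and −3.06.

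The other loci at the low end that are described here were not called. SOX4, a transcription factor gene of the HMG box family, had 3.43 and 2.26 CPM in methylated and 4.29 and 4.16 CPM in unmethylated libraries, and its share of the oligonucleotide, 14.1 and 9.21 against 12.4 and 10.7 per 1000, overlapped between groups. SLC35B3, a nucleotide sulfate transporter of the Golgi, and LBX1-AS1, an antisense RNA, also overlapped (11 and 7 against 14 and 6 counts, and 66 and 82 against 54 and 96). NFIC, a CCAAT-binding nuclear factor gene, followed DLX1 and PIGU in unmethylated signal, with 5.87 and 8.82 CPM in methylated libraries, against 5.82 and 9.81 CPM in unmethylated ones (log2 fold change −0.13 ± 0.33 SE, edgeR adjusted p = 0.887). The libraries of both groups overlapped.

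The 91 loci that were not tested still gave a higher sum in methylated RNA. Together they had 23.3 and 26.9 CPM in methylated libraries, against 11.2 and 11 CPM in unmethylated ones, a ratio of 2.3. Per 1000 counts of their oligonucleotides this was 2.00 and 2.23 in methylated and 0.904 and 0.981 in unmethylated RNA. By locus, 63 had the higher mean CPM in methylated libraries, 17 the lower one, and 11 had no count at the adenosine in any library. The same count over other untested sites is not given here, so that it serves as a description only. The deepest of the 11 loci without a count, CHD2, had 844 counts over its sequence in the 4 libraries, which allows a share of up to 3.55 per 1000. Counts at the adenosine were also low in deep sequences. ZBTB18, MTG1, TTL and chrX:102715460 were untested although their sequences had means of 15718, 10778, 10648.5 and 9720 counts in methylated libraries. In ZBTB18, a zinc finger repressor gene, the adenosine had 7 and 11 counts in methylated and 0 and 1 in unmethylated libraries. MTG1, a mitochondrial GTPase gene, had 9 and 10 counts in methylated libraries, against 2 and 5 in unmethylated ones, while TTL, the tubulin tyrosine ligase gene, had 1 and 6 counts in both groups. The locus chrX:102715460 had 2 and 7 counts, against 5 and 1 in unmethylated libraries.

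Within its own sequence, the GGACC adenosine ranked higher in methylated RNA. Among the 141 positions its median rank by CPM over the 80 tested loci was 23 in methylated and 66 in unmethylated RNA. A higher rank was built into the choice of the 41 loci that needed methylated counts to pass the filter. Over the 39 others the median rank was 24 in methylated and 57 in unmethylated RNA. Of all 80 tested loci, the 41 included, the adenosine was among the highest 5 positions in 8 in methylated RNA and in 0 in unmethylated RNA.

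Tag copies of one locus had correlated log2 fold changes, but differed in size and, in some loci, in sign. Fitted as separate sites, 120 of the 513 copies passed the filter, of which 64 were higher and 3, all of DLX1, were lower by edgeR. Some of these copies passed only through methylated counts, so that a rise was partly built into these counts and the values below. Over all 194723 sites of that fit, 7402 were higher and 3577 lower. Of 17 loci with all 3 copies tested, 6 were higher in 3 copies, 5 in 2, 1 in 1 and 5 in none. Log2 fold changes of pairs of copies had Pearson's r of 0.770, 0.737 and 0.784 and Spearman's rho of 0.657, 0.711 and 0.728 over 23, 23 and 25 loci, as a description, since copies share a sequence and the 4 libraries. The range within a locus had a median of 0.98 over the 37 loci with at least 2 copies, and reached 3.75 in TRIM52. There the copies had log2 fold changes of 2.45, 4.79 and 1.04, and shares of 18.5, 32.9 and 7.69 per 1000 in methylated RNA, against 4.96, 2.74 and 6.06 in unmethylated RNA. In TOB2, 1 copy gave 579 and 554 of the 590 and 567 methylated counts, with a log2 fold change of 4.55 and a share of 60.7 per 1000 in methylated RNA, against 4.17 in unmethylated RNA. Another TOB2 copy with 1450 and 1469 counts in methylated libraries had a log2 fold change of 0.86 (edgeR adjusted p = 0.595) and shares of 7.53 per 1000 in methylated and 4.15 in unmethylated RNA. The 3 copies of PIGU (4.95, 3.40 and 4.37) and of SAMD11 (4.78, 5.37 and 3.61) were all called. The difference between copies was not tested, and the tags are the only part in which their RNAs were designed to differ.

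The sequences differed in what surrounded the motif. Values by neighbouring base are descriptions over loci, without a test, and loci that pass the filter are not all loci. With A directly upstream (position 48), 20 of 24 tested loci were higher and 1 was lower, with a median log2 fold change of 2.80 (2.57 against sequence totals). With G, U and C there, 9 of 20, 14 of 27 and 4 of 9 were higher, with medians of 1.86, 1.67 and 0.73. The order was another one when all loci except PIGU and DLX1 were pooled, tested or not. C upstream then had the highest ratio of shares, 6.06 (21.6 per 1000 in methylated and 3.57 in unmethylated RNA), and G, A and U had ratios of 5.04, 4.91 and 2.42. ARRDC1, of high methylated signal, is among the 16 loci with C, and SAMD11 is among the 46 with G. The ratios were not taken without these loci, so that this order may rest on them. At the base behind the motif (position 54), 15 of 22 with A and 19 of 28 with U were higher, against 10 of 24 with C, where the median was 1.11 compared with 2.72 and 2.42. Only 16 of the 171 loci had G at position 54, or 9.36%, whereas 37.5% of the GGACU and 39.8% of the GGACA loci of the m6A class had it. GGACC loci of the cell-unmodified class had it in 17%.

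Base composition moved with the response. The sequences had a median of 63.8% G and C, against 58.2% and 58.9% in GGACU and GGACA loci and 63.8% in cell-unmodified GGACC loci. Of the 58 loci with the lowest G and C share (up to 59.6%), 18 were tested and 14 were higher, with a median log2 fold change of 2.83. Of the 60 loci in the middle, 24 of 35 tested were higher (median 2.34), and of the 53 with the highest share (over 66%) 9 of 27 (median 0.89). Spearman's rho between the G and C share and the log2 fold change was −0.50 over the 80 tested loci and −0.51 against sequence totals, without a p. These include the 41 loci that needed methylated counts to pass the filter, and rho was not taken for the 39 others alone. The part of the filter in this trend was not tested. Pooled over all loci of each of these ranges except PIGU and DLX1, tested or not, the shares at the adenosine were 10.4, 11.8 and 10.3 per 1000 in methylated RNA, against 1.71, 2.43 and 3.25 per 1000 in unmethylated RNA. The ratios were 6.10, 4.85 and 3.16, so that these ranges differed more in the unmethylated than in the methylated share. The difference between them was not tested. The tested loci of the 3 ranges had median totals of 4151.9, 4773.75 and 4923 counts per library.

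Other motifs in the sequence were common, since all but 68 of the 171 sequences held at least 1 further GGAC motif. Of those with one, 26 of 50 tested loci were higher, with a median log2 fold change of 1.59, against 21 of 30 and 2.72 in sequences without one. The median G and C share of the tested loci was 64.9% and 63.8% in these groups. Grouped by other DRACH motifs (0, 1 or 2, 3 or more), 8 of 11, 19 of 37 and 20 of 32 tested loci were higher. Their median log2 fold changes were 2.44, 1.54 and 2.32, without a steady trend. Over the 80 loci, Spearman's rho was 0.09 for the number of DRACH motifs and −0.25 for GGAC motifs, without a p. By the predicted probability that position 51 is unpaired, 16 of 23, 18 of 24 and 13 of 33 tested loci were higher in the 57 loci with the lowest, middle and highest values, with medians of 2.31, 2.47 and 1.25. Spearman's rho with the log2 fold change was −0.22 over the 80 loci, without a p. By the probability averaged over the 5 bases of the motif, 15 of 24, 16 of 27 and 16 of 29 were higher, with medians of 2.43, 1.97 and 1.75, and the rho was −0.03. The prediction covered the 141 nt of the table and not the tag and linker. The limit set by the filter applies to these counts and values as well.

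Further DRACH adenosines in the same sequences serve as an internal comparison. Of 164 tested, 55 were higher (33.5%) and 1 was lower, with a median log2 fold change of 0.95, and of the 68 with GGAC 29 were higher (42.6%, median 1.14). Of 33 DRACG adenosines 16 were higher, whereas adenosines not before C (27 of 1394) and other bases (199 of 7150) were higher in 1.94% and 2.78%. In the 60 sequences where position 51 and another DRACH site were both tested, 83 of the other sites, or 68%, had a lower log2 fold change than position 51. Position 51 passed the filter only with methylated counts in 41 of the 80 tested loci, so that a high value there was partly built in. The share was not taken for the 39 other loci alone. In 10 sequences, however, another DRACH site rose while the selected GGACC was tested and not called. The following examples were chosen after their values were seen. In SNAPC4, a subunit of the complex that drives snRNA transcription, a GGACA at position 45 had 6.48 and 7.92 CPM in methylated libraries, against 1.24 and 0.582 CPM in unmethylated ones (log2 fold change 2.96 ± 0.42 SE, edgeR adjusted p = 5.81e-05). The GGACC shortly behind it had 2.06 and 1.58 CPM in methylated libraries, against 1.53 and 0.665 CPM in unmethylated ones (0.73, adjusted p = 0.496 by edgeR). In B4GALNT3, a glycosyltransferase gene, a GGACU at position 27 rose by 2.54 ± 0.30 (SE, edgeR adjusted p = 5.72e-06), while the GGACC had a log2 fold change of 0.55.

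Some adenosines were present in more than 1 designed sequence, which gave a second measurement at another distance from the ends. A stretch of 21 nt around the GGACC was found in another sequence for 11 loci. The GGACC of BRSK2, a kinase gene, rose by 3.10 ± 0.46 (SE, log2, edgeR adjusted p = 1.10e-04) at position 51 (61 and 64 counts in methylated, 6 and 6 in unmethylated libraries). In a sequence of the cell-unmodified class, where it lay 62 nt farther from the start, the same adenosine rose by 1.13 ± 0.27 (SE, edgeR adjusted p = 0.0125), with 493 and 425 counts in methylated and 167 and 184 in unmethylated libraries. The difference between these was not tested. At position 51 the adenosine passed the filter only through its methylated counts, so that a rise was built in there. Adenosines of NAB2 and TRIM56 were not called at either place, with log2 fold changes of 0.42 and 0.25 at position 51 and −0.29 and −0.21 elsewhere. These loci, too, were named after their values were seen.

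Compared with the other GGACH motifs of the m6A class, the share of GGACC loci called higher lay between those of GGACU and GGACA. Of tested loci, 47 of 80 GGACC (58.8%) were higher, against 120 of 217 GGACU (55.3%) and 76 GGACA loci (62.3%), and the median log2 fold changes were 2.25, 2.17 and 2.20. Against sequence totals, 50% of GGACC, 50.2% of GGACU and 63.1% of GGACA loci were higher, with medians of 1.87, 1.99 and 2.01. GGACC was then lowest on both measures, though almost level with GGACU in calls. These counts are descriptions, without a test. The sets also differed in depth, with medians of 2105.25, 959.75 and 1260.75 counts per locus and library. Of their 171, 610 and 251 loci, 46.8%, 35.6% and 48.6% were tested. Summed over all loci, the adenosine took 17.7 ± 0.195 per 1000 in methylated and 3.52 ± 0.663 per 1000 in unmethylated libraries for GGACC. For GGACU these values were 13.8 ± 0.313 and 4.36 ± 0.270, and for GGACA 16.5 ± 0.920 and 4.22 ± 0.234 (SD, n = 2 each). The log2 ratio of the GGACC share to the GGACU share was 0.35 and 0.38 in methylated libraries, against −0.45 and −0.19 in unmethylated ones, a difference of 0.68. Against GGACA it was 0.06 and 0.15 in methylated libraries, against −0.41 and −0.14, a difference of 0.37. The groups overlapped in neither case, and both exact permutation p-values were 0.333, the smallest possible. Both differences rested on PIGU: without it they were 0.08 and −0.23.

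The same motif was also present in sequences that had been unmodified in cells. Of 165 GGACC loci of the cell-unmodified class, 59 were tested, 26 were higher (44.1%) and 0 lower by edgeR, with a median log2 fold change of 1.24. In either direction, 33 of the 59 had an unadjusted edgeR p under 0.05, against 26311 of all 142938 sites tested. Their median depth was 1461.5 counts per locus and library, against 2105.25 in the GGACC loci of the m6A class. The adenosine took 8.75 and 8.85 per 1000 in the methylated libraries, against 3.52 and 4.06 in the unmethylated ones. The log2 ratio of the share in m6A-class GGACC loci to this share was 1.03 and 0.99 in methylated libraries, against −0.20 and −0.02 in unmethylated ones, a difference of 1.12 (exact permutation p = 0.333, the smallest possible). Without PIGU the difference was 0.52, without DLX1 it was 1.44, and from medians over loci with equal weight it was 0.41.

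Loci that share sequence limit how many of the 171 are independent. The 3 loci in STK11, a tumour suppressor kinase gene, lie 27 to 171 nt apart, so that the sequences centred at 1206900 and 1206927 on chromosome 19 cover the same bases over most of their length. At STK11 (1206927) the GGACC had 33 and 36 counts in methylated libraries, against 43 and 23 in unmethylated ones (log2 fold change −0.21 ± 0.41 SE, edgeR adjusted p = 0.853). In the sequence centred at 1206900, the same adenosine lay at position 78 and had 37 and 28 counts, against 15 and 20 (0.64 ± 0.44 SE, edgeR adjusted p = 0.479). A GGACA farther along in the sequence centred at 1206927, singled out after its values were seen, had 41 and 62 counts in methylated and 1 and 1 in unmethylated libraries, a ratio of 44 (95% counting interval 11.9 to 367.8).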

How the data were processed

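The deposited table held counts of crosslink truncations at each position of each oligonucleotide in each library, not normalized by the authors, per the file headers and the labels' protocols. Tools named by the submitters' processing notes were bedtools 2.27.1, STAR 2.7.3a and FastQC 0.11.8. For genome build and duplicate removal, nothing is given in the sources used here. Library names in the table were Methylated and Control, which were matched to the titled replicates. Oligonucleotide totals of replicates differed beyond sampling noise (chi-square per degree of freedom 18.7 in methylated and 20.7 in unmethylated libraries).

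Counts of identical sequences were summed per position. Sites that reached 10 counts in 2 or more libraries entered edgeR 4.0.16 (glmQLFit and glmQLFTest after TMM scaling, with group as the only term) under R 4.3.3, with Benjamini-Hochberg adjustment over all 142938 sites; the method was tested on simulated data. Standard errors are the log2 fold change over the square root of F. DESeq2 1.42.0 was an alternative. CPM used library totals. Pairing came from ViennaRNA 2.7.2. Summaries used Python 3.11.15, pandas 2.3.3, numpy 2.4.6 and scipy 1.17.1. Floors are 3 counts per library, averaged as CPM over the group.

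The members and comparisons were chosen with earlier results of these data known. Named loci followed a rule: of those called, the 8 largest rises with at least 3 unmethylated counts and up to 6 with fewer; the 6 highest methylated signals; the 5 lowest fold changes and any fall; the 4 nearest the median; the 4 deepest untested; and the 3 highest unmethylated signals. Of these, 1 locus is not reported here. Alternatives were scaling, filters, sequence totals as offset, tag copies as sites, the replicate number as a block, left-out libraries and left-out loci.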

Additional observations from a re-analysis of the deposited data

How the results depend on the processing

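Counts of GGACC loci and their direction held under most settings, whereas pooled ratios depended on PIGU and DLX1. The 47 higher loci were 34 in DESeq2, which gave no adjusted p for 18 of the 80, and 40 to 50 under the other scalings, filters, tag copies and sequence totals. Leaving out a library gave 17 to 45. Without methylated replicate 1 or 2 only 47 loci passed the filter each time, 21 of them called with all libraries, and 17 were called each time, 16 of them the same loci. Over all sites, the 5282 higher and 2873 lower were 3044 and 1824 in DESeq2, 2575 and 577 against totals, and 1386 to 6052 and 478 to 3140 without a library. DLX1 was lower under each setting except against sequence totals, where 0 loci were. The median log2 fold change of 2.25 was 1.76 with at least 5 counts in 1 library, 1.84 with no filter, 1.87 against totals and 2.17 over tag copies, and lay between 1.01 and 2.25 without a library. The lowest values, 1.01 and 1.22, came without a methylated replicate, over 47 loci whose median with all libraries was 0.98.

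The pooled CPM ratio of 5.32 was 3.38 without PIGU, 3.10 as a median over loci and 7.22 without DLX1, an alternative chosen after seeing the data. The ratio of shares, 5.03, was 3.31, 2.97 and 6.30. In the same order, differences from GGACU (0.68) were 0.080, 0.0057 and 1.00. Those from GGACA (0.37) were −0.23, −0.34 and 0.69, and those from cell-unmodified GGACC (1.12) were 0.52, 0.41 and 1.44.

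The called fall of DLX1 (−2.55) turned to 0.36 against totals. Named loci that were not called also changed sign: against totals NFIC (0.062), SLC35B3 (0.97) and SOX4 (0.017), NFIC without methylated replicate 1 (0.14) or unmethylated replicate 2 (0.33), and LBX1-AS1 without unmethylated replicate 2 (0.12). Without a library NFIC ranged from −0.49 to 0.33 and LBX1-AS1 from −0.58 to 0.12. None of these, DLX1 included, was called under those settings. SLC2A10 passed without unmethylated replicate 2 (edgeR adjusted p = 0.0473). With the replicate number as a block, 48 loci were higher, 1 was lower and the median was 2.26; deviations of same-numbered libraries correlated at −0.08 over sites, and the labels give no shared source. With 2 libraries per group no permutation test can pass 0.05.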
